A study of Homo sapiens with 6 samples.

Results

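The genes described here encode the nuclear subunits of complex III, cytochrome c oxidase (complex IV) and ATP synthase, with the assembly factors of cytochrome oxidase that carry COX, SURF1 or SCO symbols. The rule for membership reads symbols: names without a hyphen that begin with UQCR, ATP5 or COX followed by a digit, and CYC1, SURF1, SCO1 and SCO2. The rule found 59 of the 26372 genes in the table. They comprise 10 genes of complex III, 17 subunit genes of cytochrome oxidase including tissue isoforms, 12 assembly genes of cytochrome oxidase, 16 genes of ATP synthase, the genes ATP5S and ATP5SL, and the pseudogenes UQCRBP1 and ATP5EP2. Subunits encoded in the mitochondrial genome do not carry these symbols and are not among them.

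The cells were SH-SY5Y, a neuroblastoma line of human origin with features of neurons. Both groups carried a lentiviral short hairpin RNA driven by the U6 promoter and were kept under puromycin, which was 2 µg/mL during the first 2 weeks and 1 µg/mL afterwards. The control group (shNC, labelled genotype control) had a control hairpin and the other group (shTDP43) a hairpin against TDP-43, the RNA- and DNA-binding protein encoded by TARDBP, with 3 RNA-seq libraries of poly(A) RNA in each group. There was 1 hairpin against TDP-43 and no rescue, so an effect of TDP-43 and other effects of the hairpin or of the infected populations cannot be told apart. The labels do not state whether replicate libraries are separate cultures, and the p-values measure only the spread between these libraries, which may be technical.

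Complex III takes electrons from ubiquinol and passes them to cytochrome c, and cytochrome oxidase takes them from cytochrome c to oxygen. Both complexes pump protons across the inner mitochondrial membrane, and ATP synthase lets the protons flow back through a rotating ring of c subunits and makes ATP. The catalytic core of cytochrome oxidase is encoded in the mitochondrial genome and needs haem A and copper, which dedicated assembly factors make or deliver. Neurons draw most of their ATP from this pathway.

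Expression was given in FPKM, a count of fragments divided by gene length and library size, so levels of different genes are compared per length. The shNC libraries held 18217 to 18334 genes above 0 and the shTDP43 libraries 17945 to 18025. The files hold no read totals, so the absolute depth is unknown. TARDBP stood at 56.1, 56.2 and 56.6 FPKM in the shNC libraries and 36.0, 33.1 and 34.8 FPKM in the shTDP43 libraries. It fell from 56.3 ± 0.288 to 34.6 ± 1.43 FPKM (SD, n = 3), which is 61.5% of control (limma adjusted p = 2.84e-06; exact two-sided permutation p = 0.1, the smallest that 3 against 3 libraries can give). Of 10 markers of noradrenergic neuroblastoma cells, 5 rose and 3 fell of 9 tested. Their summed level was 1670.2 to 1679 FPKM in shNC and 1865 to 1919.9 FPKM in shTDP43, but without CHGA, the chromogranin A gene, which rose from 296 ± 5.09 to 520.1 ± 8.04 FPKM, it was 1378 to 1381 FPKM and 1353 to 1399 FPKM. Of 10 markers of mesenchymal neuroblastoma cells, all 6 that were tested fell, with summed levels of 296 to 304 FPKM in shNC and 177 to 185 FPKM in shTDP43. TH and PRRX1, a defining marker of each state, were at or near 0 in both groups. The part of these marker changes in the results that follow was not tested. The small nucleolar RNA SNORD3A was low in shNC replicate 1 and shTDP43 replicate 3 (8551 to 11541 FPKM, against 137209 to 552747 FPKM in the other libraries).

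Of the 59 genes, 52 reached the mean of 1 FPKM needed for the test, which used limma on log2(FPKM + 1) and called a gene at an adjusted p under 0.05 over all 13263 genes tested. A total of 26 genes fell in shTDP43, 1 gene (ATP5J) rose, and 25 were not called. Of all tested genes 38.1% were called, 19.6% lower and 18.5% higher, so the members called lower (50%) were a larger share than the background and those called higher (1.92%) a smaller one. These shares are a description, since the genes were chosen with earlier results of these data known. The median log2 difference, shTDP43 minus shNC, was -0.12 over the 52 genes and 0.00 over all tested genes. Every shTDP43 library lay below every shNC library for 25 of the 52 genes, and above for 2 of them, ATP5J and ATP5F1. Over all tested genes these shares were 25.4% below and 25.3% above. The differences were small in size, and the largest, in COX7B, left 75.2% of the control level. In bulk RNA, less message per cell and fewer cells that express a gene cannot be told apart. Without shNC replicate 1 and shTDP43 replicate 3, the libraries low in SNORD3A, 19 of the 52 genes were lower and 2 higher, beside 1760 lower and 1563 higher of all tested genes.

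**Figure D1:**
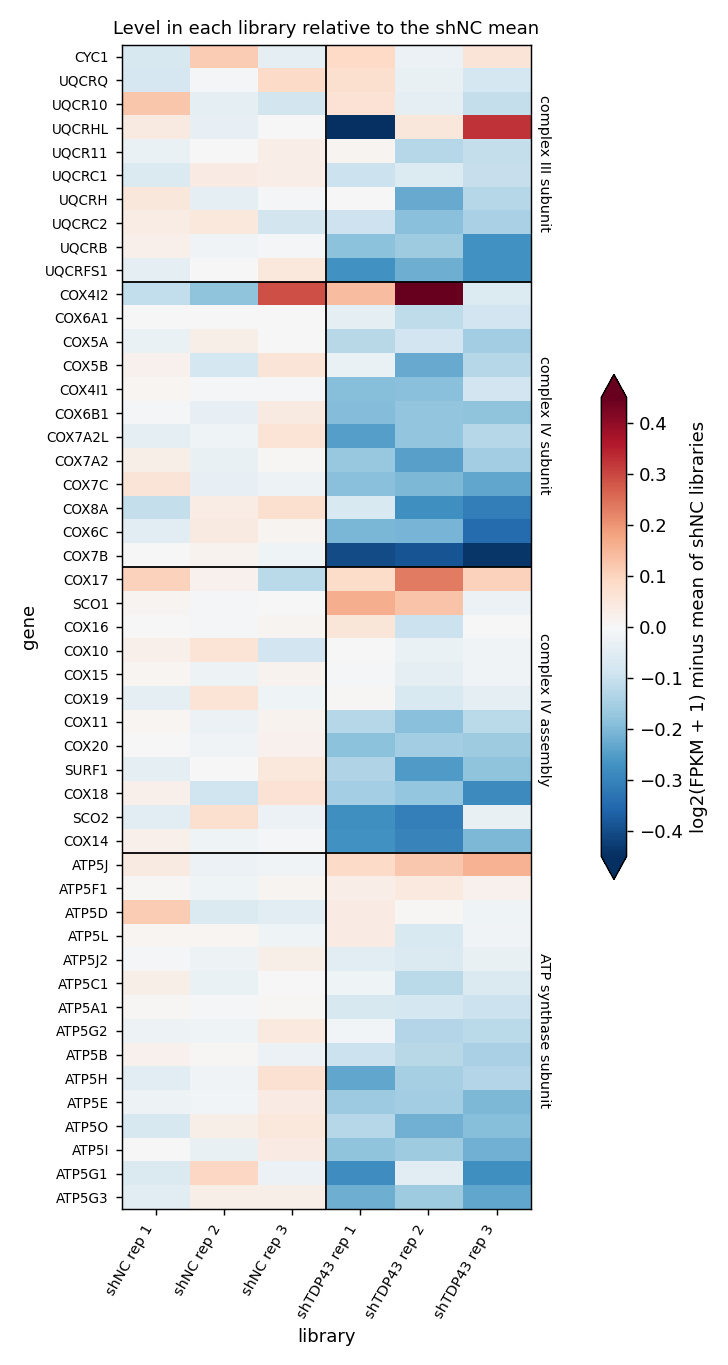
Colour gives log2(FPKM + 1) of each tested subunit or assembly gene in each library, minus the mean of the 3 shNC libraries. Rows are genes grouped by complex, and columns are the 6 libraries. UQCRHL and COX4I2 pass the ends of the colour scale. Most rows of the cytochrome oxidase subunits are blue in all 3 shTDP43 libraries, and ATP5J is red in all 3.

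The complexes differed in how many of their genes were called. For the subunits of cytochrome oxidase, 10 of 12 tested genes fell and 0 rose, with a median log2 difference of -0.18 and single genes between -0.41 and 0.23. ATP synthase had 8 of 15 tested genes lower and 1 higher, with a median of -0.09 and a range of -0.20 to 0.12. Of the complex III genes 3 of 10 were lower and 0 higher, with a median of -0.08 and a range of -0.26 to 0.04. The assembly genes of cytochrome oxidase had 5 of 12 lower and 0 higher, with a median of -0.09 and a range of -0.26 to 0.14. Their median was -0.029 where the filter was raised to 5 FPKM, and 3 were lower without shNC replicate 1, without shNC replicate 3 or after a correction for length and GC content. The differences between the complexes were not tested, and the median of each is to be read beside the 0.00 of all genes. Over all tested genes 19.6% were called lower and 18.5% higher, and complex III at 30.0% lower lies near that share. Complex III and ATP synthase had close medians but differed in level, with medians of 32.2 and 114.6 FPKM over their tested genes. The part of level and precision in the number called was not tested.

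The groups were also compared library by library. Averaged over its tested genes, the deviation of cytochrome oxidase subunits from the shNC mean was -0.14, -0.14 and -0.19 on the log2 scale in shTDP43 replicates 1, 2 and 3. The deviation was -0.08, -0.09 and -0.10 for ATP synthase, -0.10, -0.10 and -0.08 for complex III, and -0.07, -0.10 and -0.08 for the assembly genes. For all tested genes together it was -0.02 in each library. Cytochrome oxidase subunits were thus the lowest of the 4 groups in each of the 3 shTDP43 libraries. Each tested gene weighs the same in these means, so low and variable genes move them. In shTDP43, UQCRHL of complex III stood at 1.97, 3.48 and 4.42 FPKM, and COX4I2 of cytochrome oxidase at 1.88, 2.99 and 1.51 FPKM. The means were not computed without these genes. Without the libraries low in SNORD3A, 8 of 12 cytochrome oxidase subunit genes, 5 of 15 ATP synthase genes, 2 of 10 complex III genes and 4 of 12 assembly genes were lower.

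Neighbouring gene families were counted in the same way. Complex I, which feeds electrons into the chain before complex III, had 9 of 37 tested subunit genes lower (24.3%) and 1 higher, with a median of -0.05. These genes were taken by NDUF symbols and include NDUFA4, which is also counted below among the further cytochrome oxidase genes. The proteins of the mitochondrial ribosome, which translate the subunits encoded in mitochondrial DNA, had 12 of 77 lower and 10 higher, with a median of -0.02. The proteins of the cytosolic ribosome had 12 of 82 lower and 13 higher, with a median of 0.00. In the order given, the shares lower were 24.3%, 15.6% and 14.6%, near the 19.6% of all tested genes. The shares higher were 2.70%, 13.0% and 15.9%, beside 18.5% of all tested genes.

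Many of these genes have short, abundant messages. Over all genes, length went mainly with the share called higher, and level mainly with the share called lower. Among all tested genes with a transcript under 1000 bases, 20.9% were lower and 9.50% higher, against 19.7% and 19.8% of longer ones. Among all tested genes of at least 100 FPKM, 30.5% were lower and 20.4% higher. Genes both under 1000 bases and at least 100 FPKM were 32.0% lower and 7.88% higher, with a median log2 difference of -0.06 over 241 genes. The median transcript was 702.5 bases for cytochrome oxidase subunits, 932 bases for ATP synthase, 1282 bases for complex III and 2560 bases for all tested genes. Within cytochrome oxidase, 7 of the 9 subunit genes under 1000 bases and 3 of the 3 at or above that length were lower. Length was read from a single annotated transcript of each gene, which need not be the form expressed here. After a correction of each library for length and GC content, 8 of 12 cytochrome oxidase subunit genes were lower with a median of -0.14, and 21 of the 52 genes in all with a median of -0.09. The part of length and level in the remaining difference was not tested.

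**Figure D2:**
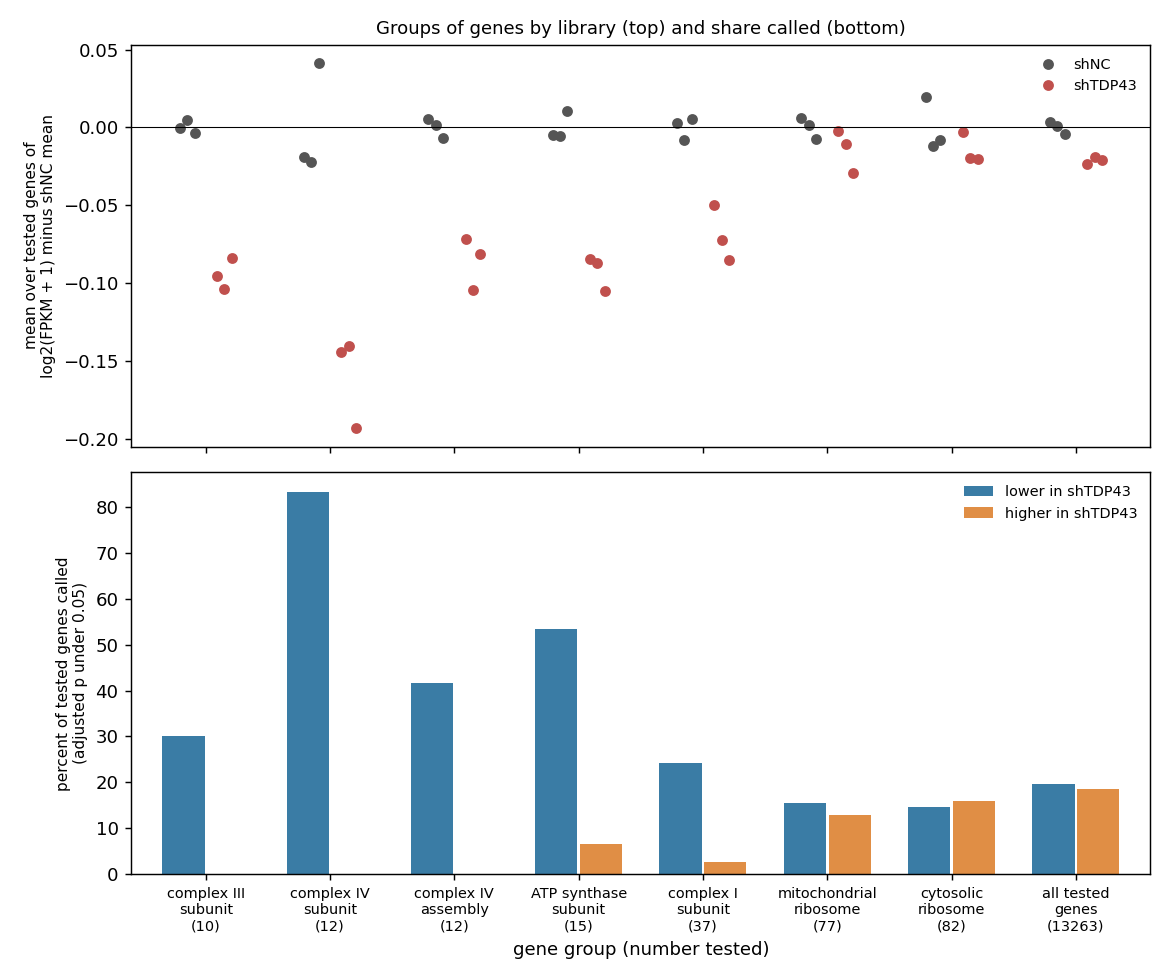
The upper plot gives the mean deviation from the shNC mean, on the log2(FPKM + 1) scale, of each gene group (horizontal axis, with complex I, the ribosomes and all tested genes beside the complexes) in each library (points); the lower plot gives the percent of tested genes called lower and higher in shTDP43. Cytochrome oxidase subunits lie lowest, with 10 of 12 genes called lower.

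Complex III had the smallest number and share of genes called among the 3 complexes. UQCRFS1, the Rieske iron-sulfur protein that accepts the first electron from ubiquinol, had the largest difference (chromosome 19, 29205320 to 29213151; GRCh38, as for all positions here). It stood at 30.9, 31.8 and 32.9 FPKM in the shNC libraries and 26.2, 27.3 and 26.2 FPKM in the shTDP43 libraries. The groups did not overlap, and UQCRFS1 fell from 31.9 ± 1.01 to 26.5 ± 0.611 FPKM (mean ± SD of 3 libraries), 83.3% of control, a log2 difference of -0.26 (SE 0.03; limma adjusted p = 0.000632). UQCRB, the ubiquinone-binding protein of the complex, stood at 29.7, 28.9 and 29.1 FPKM in the shNC libraries and 25.6, 26.0 and 24.0 FPKM in the shTDP43 libraries. Each shTDP43 value was below each shNC value, and the mean fell to 86.3% of control, a log2 difference of -0.21 (SE 0.04; limma adjusted p = 0.00256). UQCRC2, a core protein on the matrix side, stood at 44.8, 45.2 and 41.2 FPKM in the shNC libraries and 40.9, 38.2 and 39.4 FPKM in the shTDP43 libraries. Its mean fell to 90.4% of control with a log2 difference of -0.14 (SE 0.04; limma adjusted p = 0.028), and the highest shTDP43 library was just under the lowest shNC library. This call was lost without shNC replicate 1 or 2 or shTDP43 replicate 2 or 3 (adjusted p between 0.0694 and 0.0905). In all it was lost under 7 of the 16 other settings (limma adjusted p up to 0.165).

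The other genes of complex III were not called. UQCRH, the hinge protein that links cytochrome c1 to cytochrome c, was the most abundant gene of the complex. It stood at 713, 667 and 684 FPKM in the shNC libraries and 686, 587 and 629 FPKM in the shTDP43 libraries. Its groups overlapped, with a difference of -0.12 on the log2 scale (limma adjusted p = 0.111; 95% interval -0.24 to 0.00). UQCRC1, the partner of UQCRC2, was at 93.9% of control (95% interval -0.16 to -0.01 on the log2 scale). CYC1, cytochrome c1 itself, was at 103% of control, with 19.2 ± 1.44 FPKM in shNC and 19.8 ± 0.859 FPKM in shTDP43, with a log2 difference of 0.04 (95% interval -0.09 to 0.17). The small subunits UQCR11, UQCR10 and UQCRQ were at 94.9%, 97.9% and 99.1% of control. UQCRH and UQCR11 passed as lower without shTDP43 replicate 1 (adjusted p = 0.0156 and 0.0307), and UQCRC1 without shNC replicate 1 (adjusted p = 0.0214), so 5 genes of complex III were lower without shTDP43 replicate 1.

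UQCRHL is a near-identical copy of UQCRH, and its reads may be shared with that gene. It stood at 3.45, 3.21 and 3.31 FPKM in the shNC libraries and 1.97, 3.48 and 4.42 FPKM in the shTDP43 libraries, which is 0.481% of the UQCRH and UQCRHL sum in shNC and 0.524% in shTDP43. The shTDP43 libraries spread more widely than the shNC libraries and lay on both sides of them. The pseudogene UQCRBP1, a copy of UQCRB, had means of 2.33 ± 0.243 FPKM in shNC and 2.41 ± 0.484 FPKM in shTDP43 and was not called.

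**Figure D3:**
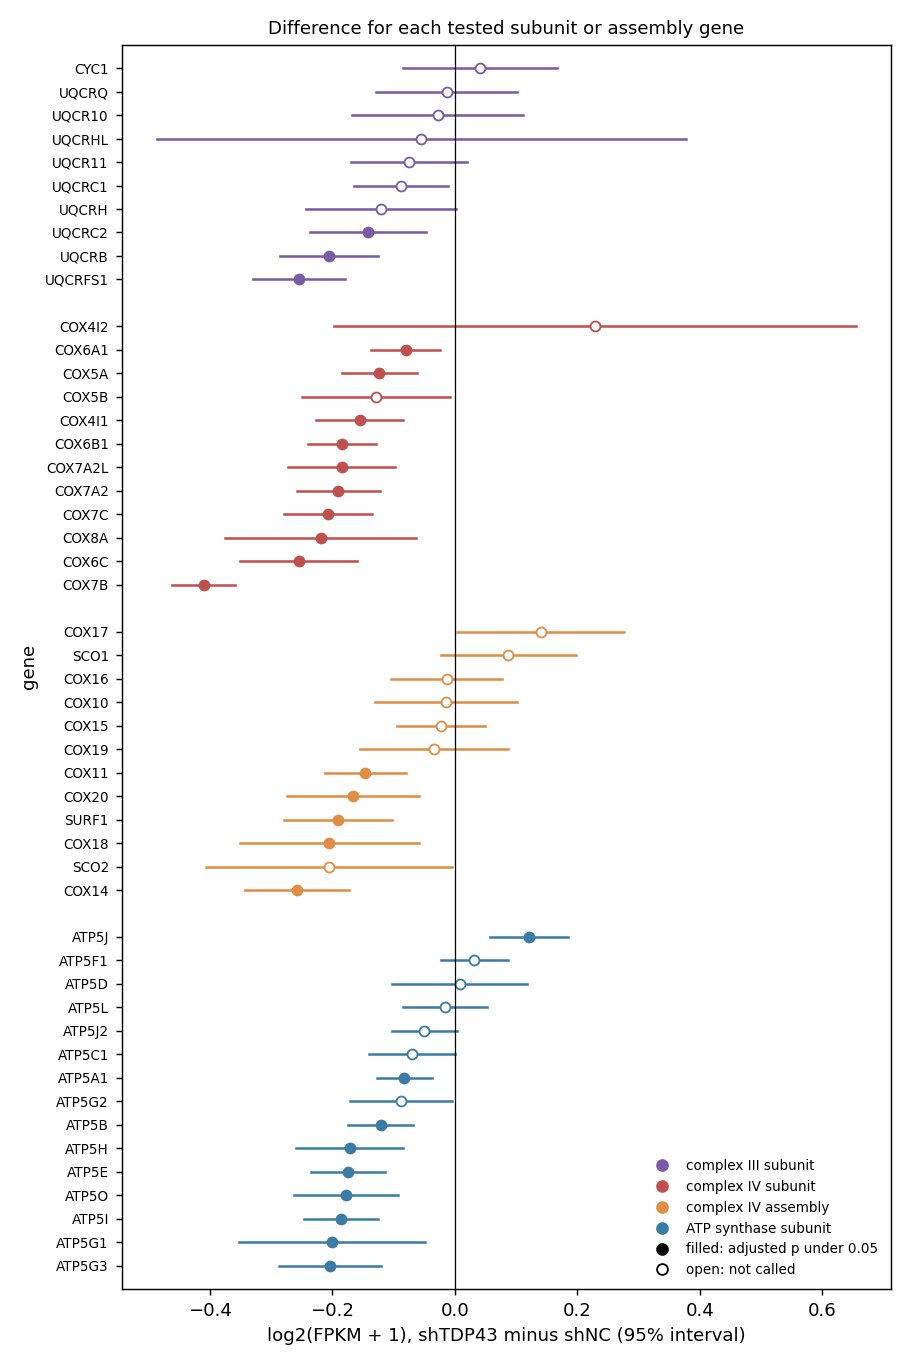
Points give the log2(FPKM + 1) difference, shTDP43 minus shNC, of each tested subunit or assembly gene, with 95% intervals from limma. Genes are grouped and coloured by complex, with filled points where called and open points where not. ATP5S, ATP5SL and UQCRBP1 are not shown. COX7B lies farthest to the left at -0.41, ATP5J is the 1 gene called higher, and the wide interval of COX4I2 spans 0.

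Nearly all the ubiquitous subunits of cytochrome oxidase among the members fell, and COX7B had the largest difference of the 52 genes. COX7B is a small membrane-spanning subunit encoded on the X chromosome (chromosome X, 77899468 to 77907376). It stood at 318, 322 and 314 FPKM in the shNC libraries and 240.1, 243 and 234 FPKM in the shTDP43 libraries. The shTDP43 libraries lay far under the shNC libraries and close to one another, and COX7B fell from 318 ± 3.85 to 239 ± 4.25 FPKM (mean ± SD of 3 libraries), or 75.2% of control. The log2 difference was -0.41 (SE 0.02; 95% interval -0.46 to -0.36; limma adjusted p = 6.81e-06), and it passed under each of the 16 other settings tried (adjusted p between 5.72e-06 and 0.000755).

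The next largest differences were also in small membrane subunits. COX6C stood at 137, 145 and 143 FPKM in the shNC libraries and 123, 122 and 111 FPKM in the shTDP43 libraries, with no overlap. Its mean fell to 83.8% of control, a log2 difference of -0.25 (SE 0.04; limma adjusted p = 0.00209). COX8A, a single-span subunit, stood at 234, 258 and 265 FPKM in the shNC libraries and 239.8, 208 and 203 FPKM in the shTDP43 libraries. Its groups overlapped through shNC replicate 1 and shTDP43 replicate 1, and the mean fell to 86.0% of control, a log2 difference of -0.22 (SE 0.07; limma adjusted p = 0.0344). Without shNC replicate 2 or 3 or shTDP43 replicate 2 or 3 COX8A did not pass (adjusted p between 0.0912 and 0.106), nor after the correction for length and GC content (adjusted p = 0.0956). COX7C (chromosome 5, 86617941 to 86620962), the most abundant of all 59 genes, stood at 1034, 969 and 978 FPKM in the shNC libraries and 873, 864 and 845 FPKM in the shTDP43 libraries. All shTDP43 values were under all shNC values, and COX7C fell from 994 ± 35.1 to 860.4 ± 14.3 FPKM (mean ± SD of 3 libraries), 86.6% of control (limma adjusted p = 0.00138).

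The other ubiquitous subunits fell by smaller amounts. COX7A2, the liver-type isoform of subunit 7A, fell to 87.6% of control (limma adjusted p = 0.00159). COX6B1, which faces the intermembrane space near the cytochrome c site, fell to 87.9% (adjusted p = 0.000729). COX7A2L, a relative of subunit 7A that links complex III with cytochrome oxidase in supercomplexes, fell to 87.9% (adjusted p = 0.00634). COX4I1, the regulatory subunit that binds ATP, fell to 89.8% (adjusted p = 0.0053), and COX5A, with which it joins the core early in assembly, fell to 91.7% (adjusted p = 0.00787). After quantile normalization COX4I1 did not pass (adjusted p = 0.0947). COX6A1 fell to 94.6% (adjusted p = 0.0308), and this call was lost when any 1 library other than shTDP43 replicate 1 was left out (adjusted p between 0.0667 and 0.0829) and after the length and GC correction (adjusted p = 0.285). After quantile normalization the log2 difference of COX6A1 was -0.02 (adjusted p = 0.526). COX5B, the zinc-binding subunit, was the 1 ubiquitous subunit among the members not called. COX5B was at 91.5% of control, a difference of -0.13 on the log2 scale (limma adjusted p = 0.088, 95% interval -0.25 to -0.01). It passed as lower without shTDP43 replicate 1 (adjusted p = 0.0249). No ubiquitous subunit among the members was above control. NDUFA4, a cytochrome oxidase gene outside the symbol rule, was at 94.7% of control and not called (limma adjusted p = 0.0749).

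Several subunits of cytochrome oxidase have a second gene for muscle, lung or testis, and these isoforms were low here. COX4I1 stood at 323, 319.7 and 319.9 FPKM in the shNC libraries and 281, 281 and 302 FPKM in the shTDP43 libraries, whereas COX4I2, the isoform known from lung and from low oxygen, stood at 1.43, 1.31 and 2.2 FPKM in the shNC libraries and 1.88, 2.99 and 1.51 FPKM in the shTDP43 libraries. COX4I2 made up 0.511% of the COX4 sum in shNC and 0.739% in shTDP43, with a difference of 0.23 on the log2 scale (limma adjusted p = 0.364; 95% interval -0.20 to 0.65), and its groups overlapped. COX6B1 stood at 294, 288 and 303 FPKM in the shNC libraries and 258, 261 and 260.0 FPKM in the shTDP43 libraries, and COX6B2, the testis isoform, at 0.764, 0.568 and 0.654 FPKM in the shNC libraries and 0.180, 0.324 and 0.197 FPKM in the shTDP43 libraries. Each shTDP43 value of COX6B2 lay below each shNC value, but its mean was under 1 FPKM and it was not tested; its share of the COX6B sum was 0.224% in shNC and 0.0899% in shTDP43.

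The muscle isoforms were lower still. COX6A1 stood at 337, 337 and 337 FPKM in the shNC libraries and 327, 311 and 318 FPKM in the shTDP43 libraries, while COX6A2, its form in heart and skeletal muscle, was above 0 in 1 library of each group. COX7A2 stood at 269, 258 and 265 FPKM in the shNC libraries and 234, 222 and 236 FPKM in the shTDP43 libraries, while COX7A1, its form in the same muscles, stood at 0.0846, 0.168 and 0.367 FPKM in the shNC libraries and 0.105, 0 and 0.0968 FPKM in the shTDP43 libraries. COX8C, a testis relative of COX8A, stood at 0, 0.495 and 0.538 FPKM in the shNC libraries and 0, 0.188 and 0.378 FPKM in the shTDP43 libraries, and COX7B2, a testis relative of COX7B, was listed at 0 in all 6 libraries. None of these 4 genes reached the mean needed for a test, and the ubiquitous isoform was the abundant one of each pair in all 6 libraries.

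**Figure D4:**
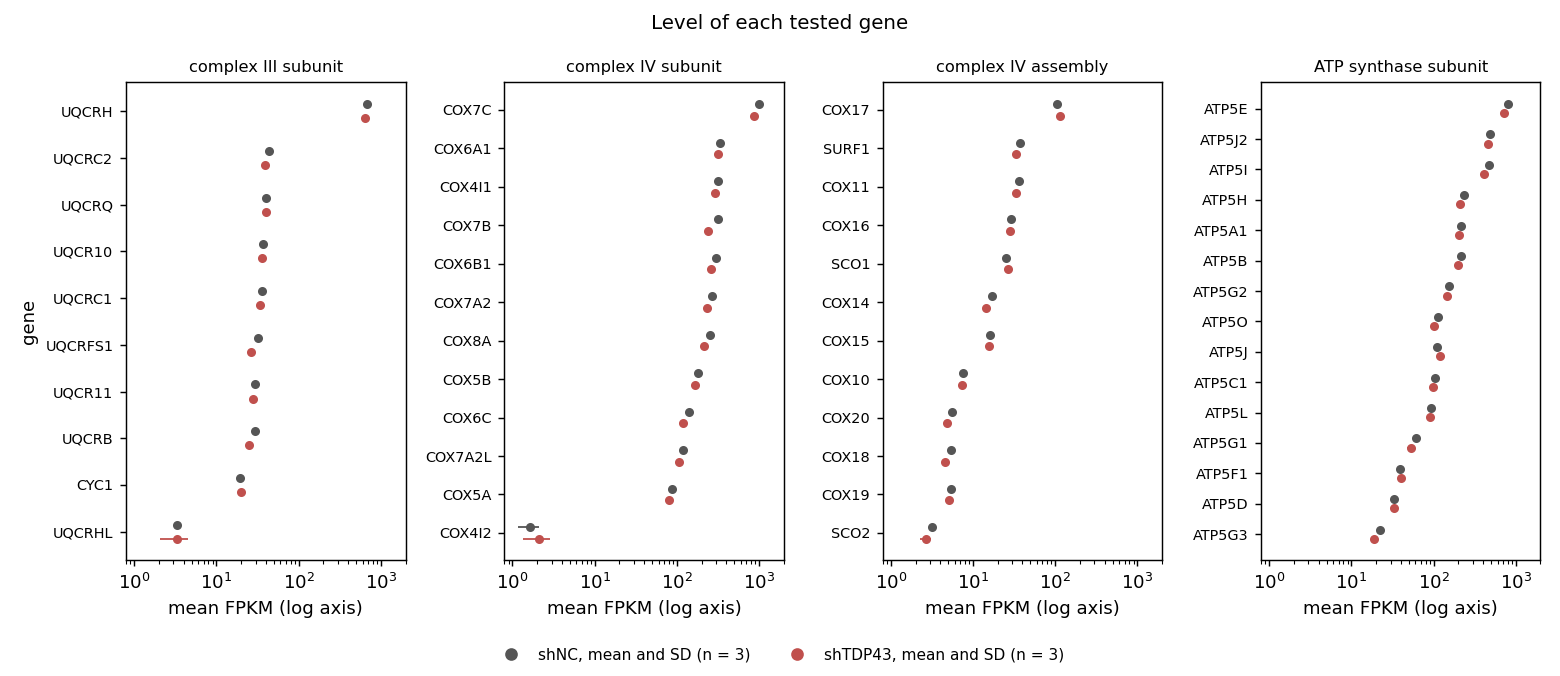
Points give the mean FPKM of each tested subunit or assembly gene in shNC and shTDP43 on a log axis. Bars are 1 SD over the 3 libraries, and genes are ordered by level within each complex. Within cytochrome oxidase, COX7C lies far to the right and COX4I2 to the left, and the shift between the groups is small beside the range of levels.

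The assembly genes of cytochrome oxidase were expressed at lower levels than the subunits, with a median of 15.8 FPKM over 12 genes against 241 FPKM over the 12 tested subunit genes and 130.1 FPKM over all 17, and 5 of 12 fell. COX14, which holds newly made COX1 in early assembly (chromosome 12, 50112236 to 50120453), stood at 17.5, 17.0 and 17.1 FPKM in the shNC libraries and 14.1, 13.8 and 14.8 FPKM in the shTDP43 libraries. Its groups lay apart, and the mean fell to 82.7% of control, a log2 difference of -0.26 (SE 0.04; limma adjusted p = 0.00111). COX18, which inserts part of COX2 into the membrane, stood at 5.46, 4.97 and 5.64 FPKM in the shNC libraries and 4.71, 4.62 and 4.21 FPKM in the shTDP43 libraries. The mean fell to 84.2% of control, a log2 difference of -0.21 (SE 0.06; limma adjusted p = 0.0347), which did not pass without shNC replicate 1 or 3 or shTDP43 replicate 2 or 3 (adjusted p between 0.06 and 0.109). SURF1, a factor of COX1 maturation whose loss causes Leigh syndrome, stood at 36.5, 37.7 and 39.0 FPKM in the shNC libraries and 34.2, 31.5 and 33.2 FPKM in the shTDP43 libraries. Its groups did not overlap, and it fell to 87.3% of control, a log2 difference of -0.19 (SE 0.04; limma adjusted p = 0.00552). SURF1 overlaps SURF2 on the other strand, which rose (log2 difference 0.38, adjusted p = 0.00778), and whether the authors' values used strand is not stated in the labels. COX20, a chaperone of COX2, stood at 5.53, 5.48 and 5.63 FPKM in the shNC libraries and 4.76, 4.88 and 4.86 FPKM in the shTDP43 libraries. It fell to 87.1% of control with a log2 difference of -0.17 (SE 0.05; limma adjusted p = 0.0236), but did not pass when any 1 library other than shTDP43 replicate 2 was left out (adjusted p between 0.051 and 0.0729). COX18 and COX20 also did not pass after the length and GC correction (adjusted p = 0.0513 and 0.0549). COX11, which helps deliver copper to COX1, fell to 90.1% of control (limma adjusted p = 0.00498), while STXBP4, which overlaps it on the other strand, rose (log2 difference 0.39, adjusted p = 0.00021).

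The other copper and haem factors were not called. COX17, the copper chaperone that hands copper to the other factors and the most abundant of the assembly genes, stood at 111, 105 and 95.2 FPKM in the shNC libraries and 109.9, 122 and 111 FPKM in the shTDP43 libraries. It was at 110.2% of control, a difference of 0.14 on the log2 scale (limma adjusted p = 0.098; 95% interval 0.00 to 0.28), and passed as higher without shNC replicate 1 (adjusted p = 0.0405). SCO1 and SCO2 both pass copper to COX2. SCO1 was at 107% of control (limma adjusted p = 0.183), and SCO2, the least abundant of the tested assembly genes, stood at 3.07, 3.42 and 3.13 FPKM in the shNC libraries and 2.47, 2.39 and 3.11 FPKM in the shTDP43 libraries, 82.9% of control (limma adjusted p = 0.0988). Without shTDP43 replicate 3, SCO1 passed as higher (adjusted p = 0.0125) and SCO2 as lower (adjusted p = 0.0238). COX10 and COX15, which make haem A in successive steps, were at 98.8% and 98.4% of control. COX16 and COX19 were at 99.1% and 97.2%.

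In ATP synthase the lower genes were spread over the head, the stalks and the membrane part. Of the 5 genes of the F1 head and central stalk 3 fell, of the 4 of the peripheral stalk 2 fell and 1 rose, of the 3 c-subunit genes 2 fell, and of the other 3 tested membrane subunits 1 fell. In the head, ATP5A1 and ATP5B, the alpha and beta subunits that bind nucleotide, fell to 94.4% and 91.9% of control (limma adjusted p = 0.0122 and 0.00457). Without the libraries low in SNORD3A neither passed (adjusted p = 0.0954 and 0.0533). ATP5E, the epsilon subunit and the most abundant gene of ATP synthase, stood at 802, 809 and 836 FPKM in the shNC libraries and 728, 731 and 709 FPKM in the shTDP43 libraries. No library of one group reached the other, and ATP5E fell from 816 ± 17.7 to 723 ± 12 FPKM (mean ± SD of 3 libraries), 88.6% of control, a log2 difference of -0.17 (SE 0.03; limma adjusted p = 0.00137). After quantile normalization it did not pass (adjusted p = 0.154). The read-through gene SLMO2-ATP5E shares exons with ATP5E, so reads may be shared, and stood at 5.67, 5.37 and 0.818 FPKM in the shNC libraries and 0.333, 0.152 and 0 FPKM in the shTDP43 libraries. SLMO2-ATP5E was called lower (log2 difference -1.88, limma adjusted p = 0.0116). ATP5C1 and ATP5D, the gamma and delta subunits, were at 95.3% and 100.4% of control and were not called, although ATP5C1 passed as lower without shTDP43 replicate 1 (adjusted p = 0.0474).

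The peripheral stalk, which holds the head still while the ring turns, was the 1 place where members were called in both directions. ATP5O, the subunit that joins the stalk to the head, stood at 108, 116 and 117 FPKM in the shNC libraries and 104, 97.7 and 99.3 FPKM in the shTDP43 libraries. It fell to 88.3% of control, a log2 difference of -0.18 (SE 0.04; limma adjusted p = 0.00649), and ATP5H, subunit d, fell to 88.7% (adjusted p = 0.00891). ATP5J, coupling factor 6 (current symbol ATP5PF; chromosome 21, 25724500 to 25735653), stood at 113, 108 and 109 FPKM in the shNC libraries and 117, 119 and 122 FPKM in the shTDP43 libraries. All 3 shTDP43 libraries were above all 3 shNC libraries, and ATP5J rose from 109.8 ± 2.72 to 119 ± 2.89 FPKM (mean ± SD of 3 libraries), 109% of control. Its log2 difference was 0.12 (SE 0.03; 95% interval 0.06 to 0.18; limma adjusted p = 0.00992), and it passed under each of the 16 other settings (adjusted p between 0.00284 and 0.0407). ATP5J overlaps GABPA and JAM2 on the other strand, of which GABPA was not called and JAM2 fell (log2 difference -0.18, adjusted p = 0.0207). ATP5F1, subunit b, was at 102% of control, and its groups did not overlap, but it was not called (limma adjusted p = 0.326; 95% interval -0.02 to 0.09).

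The c subunit of the ring is encoded by 3 genes whose mature proteins are the same. ATP5G2 was the most abundant of them, at 153, 153 and 159.8 FPKM in the shNC libraries and 154, 141 and 142 FPKM in the shTDP43 libraries. ATP5G1 stood at 58.4, 65.4 and 60.1 FPKM in the shNC libraries and 50.3, 59.2 and 50.4 FPKM in the shTDP43 libraries. ATP5G3, the least abundant gene of ATP synthase among those tested, stood at 21.3, 22.5 and 22.5 FPKM in the shNC libraries and 18.9, 19.7 and 18.7 FPKM in the shTDP43 libraries. ATP5G3 showed no overlap and fell to 86.2% of control, a log2 difference of -0.20 (SE 0.04; limma adjusted p = 0.0031). ATP5G1 overlapped between groups and fell to 87.0% of control (limma adjusted p = 0.0436), a call lost without shNC replicate 2 or 3 or shTDP43 replicate 1 or 3 (adjusted p between 0.0747 and 0.13) and after the length and GC correction (adjusted p = 0.119). ATP5G2 was at 94.1% of control and not called (limma adjusted p = 0.0883; 95% interval -0.17 to -0.01), but passed as lower without shTDP43 replicate 1 (adjusted p = 0.0148).

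The summed level of the 3 ring genes was 232, 240.9 and 242 FPKM in the shNC libraries and 223, 220.2 and 212 FPKM in the shTDP43 libraries. ATP5G2 supplied 65.0 ± 1.33% of the sum in shNC and 66.8 ± 2.44% in shTDP43, and ATP5G1 25.7 ± 1.27% and 24.4 ± 2.22% (SD, n = 3; exact two-sided permutation p = 0.4 for each, adjusted p = 0.4). The share of ATP5G3 was 9.16%, 9.35% and 9.29% in shNC and 8.46%, 8.94% and 8.82% in shTDP43. These do not overlap, and the exact permutation test (two-sided) reached its smallest possible p of 0.1, and 0.3 after Benjamini-Hochberg adjustment over the 3 genes. With 3 libraries a group, a shift in the makeup of the ring message was not resolved.

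Of the other membrane subunits, ATP5I, subunit e, which helps ATP synthase form dimers, stood at 469, 459.9 and 482 FPKM in the shNC libraries and 415, 421 and 405 FPKM in the shTDP43 libraries. Its libraries were lower in shTDP43 without overlap, and it fell from 471 ± 11.3 to 413 ± 7.98 FPKM (mean ± SD of 3 libraries), 87.9% of control, a log2 difference of -0.19 (SE 0.03; limma adjusted p = 0.00104). ATP5J2 and ATP5L, subunits f and g, were at 96.6% and 98.9% of control and were not called. ATP5L2, a relative of ATP5L, had a mean of 0.402 FPKM in shNC and 0.216 FPKM in shTDP43 and was not tested, and the pseudogene ATP5EP2 was listed at 0 in all libraries. ATP5S, coupling factor B, and ATP5SL, its relative, were at 95.5% and 101% of control and were not called.

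**Figure D5:**
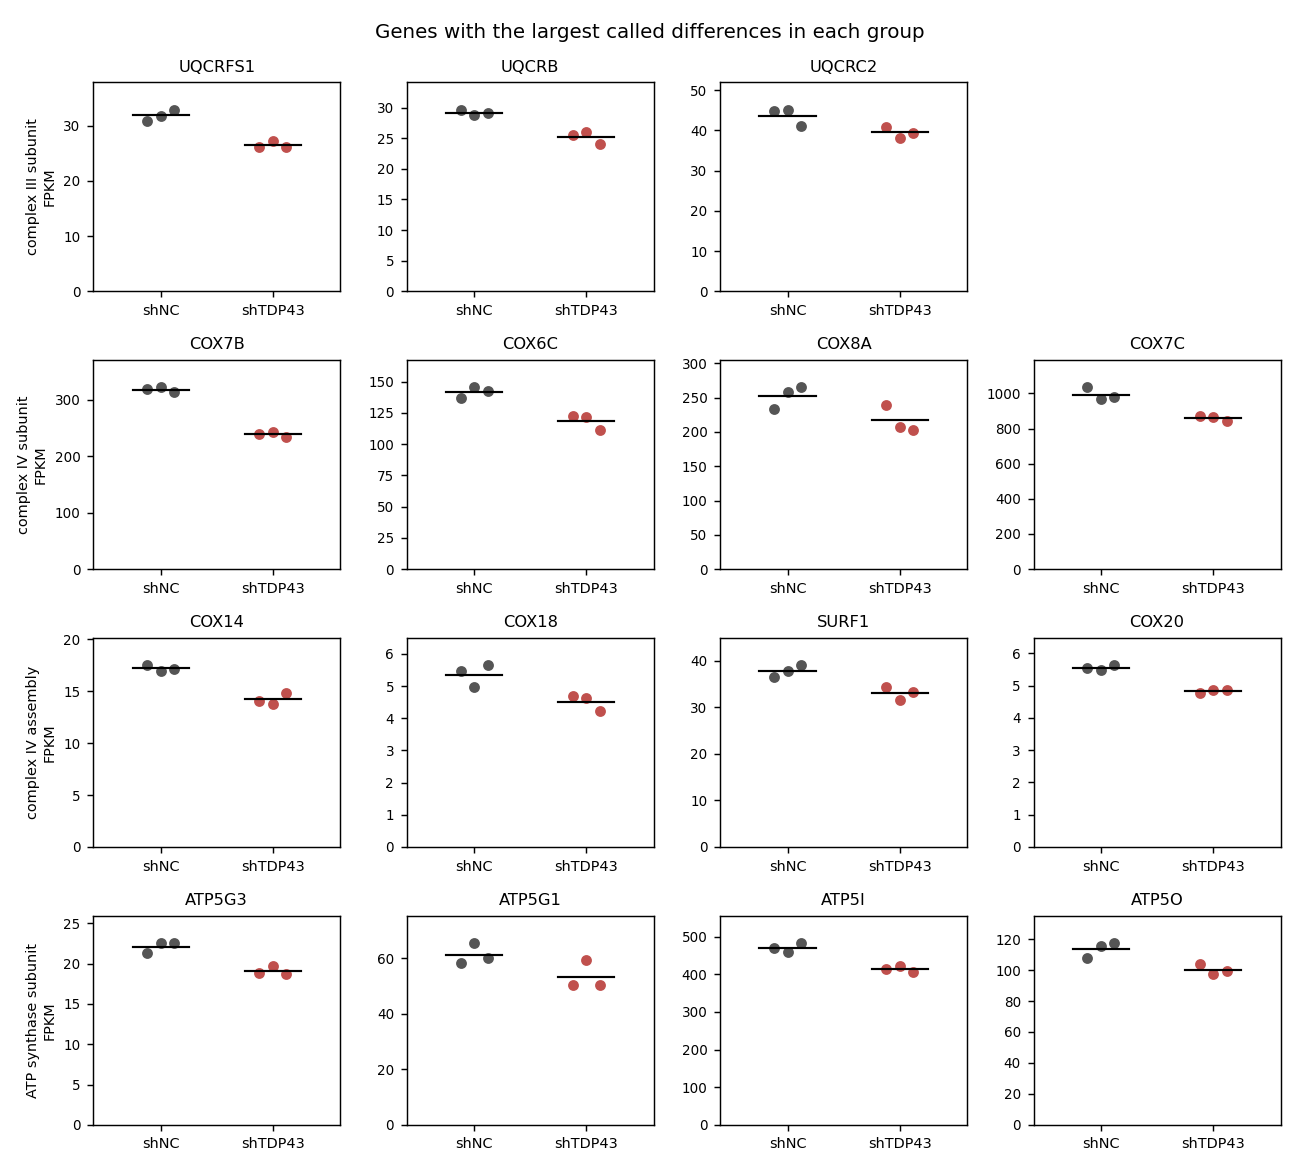
Points give the FPKM of the genes with the largest called differences of complex III (3 genes), cytochrome oxidase subunits, cytochrome oxidase assembly and ATP synthase (4 genes each) in each library, with lines at the group means. The groups lie apart in all panels except COX8A and ATP5G1, where the shNC and shTDP43 libraries overlap.

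Promoters are printed for COX7B, the gene with the largest difference, and ATP5J, the 1 gene that rose. They run from 250 bases before an annotated transcript start to 50 bases after it (RefSeq, GRCh38.p14), 5′ to 3′ on the strand of the gene. The window is chrX:77899218-77899517 (+) for COX7B and chr21:25735005-25735304 (-) for ATP5J. On its start side the ATP5J gene reaches 25735653, so its window lies at a start inside the gene and not at the outermost start. Capitals mark matches to the motifs of the factors that are known to drive many nuclear genes of the respiratory chain: GCGCA and GCGC with any base between them for NRF1, CCGGAAG for the ETS family, to which GABPA belongs, and AAGATGGCG for YY1, each searched on both strands, with overlaps allowed.
COX7B: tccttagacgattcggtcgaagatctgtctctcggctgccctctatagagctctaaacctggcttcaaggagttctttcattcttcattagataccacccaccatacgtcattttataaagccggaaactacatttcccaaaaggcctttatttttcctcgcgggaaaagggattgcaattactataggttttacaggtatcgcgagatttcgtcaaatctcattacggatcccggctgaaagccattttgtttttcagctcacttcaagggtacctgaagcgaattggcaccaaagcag
ATP5J: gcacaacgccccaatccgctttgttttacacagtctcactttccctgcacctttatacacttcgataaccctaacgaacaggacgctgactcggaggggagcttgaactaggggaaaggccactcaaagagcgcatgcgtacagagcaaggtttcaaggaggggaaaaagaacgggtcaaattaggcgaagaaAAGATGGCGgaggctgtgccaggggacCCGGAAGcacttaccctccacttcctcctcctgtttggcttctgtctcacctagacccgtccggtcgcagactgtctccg
The COX7B window holds none of the 3 motifs in these letters. The ATP5J window holds a match to the YY1 motif and, after it, a match to the ETS motif.

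Of the 52 tested genes, 39 had a promoter in the RefSeq table. An ETS match was in 17 of the 39 (43.6%), an NRF1 match in 9 (23.1%) and a YY1 match in 3 (7.69%), against 19.8%, 12.2% and 4.12% of the 10445 promoters of tested genes. At least 1 of the motifs was in 59.0% of the members and 32.1% of the promoters of tested genes (17.0% of all 27305 promoters). By group, an NRF1 match was in 4 of 7 promoters of complex III, 0 of 10 of cytochrome oxidase subunits, 2 of 10 of assembly genes and 3 of 11 of ATP synthase. An ETS match was in 3 of 7, 5 of 10, 5 of 10 and 4 of 11 of them. Differences between the groups were not tested and rest on few promoters. Any match was in 10 of 21 genes that fell and in 12 of 17 that were not called. Matches describe letters only, and binding was not measured.

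TDP-43 is known to bind UG-rich stretches of RNA. The stretch TGTGTGTG, written as DNA, was in the transcript of 4 of the 52 genes (7.69%), against 2096 of 12839 tested genes with a transcript sequence (16.3%). The median transcript was 991.5 bases for the 52 genes and 2560 bases for all tested genes, and longer transcripts have more room for the stretch. The part of length in the difference between these shares was not tested. Introns, where much of the binding of TDP-43 is known to lie, were not searched.

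Genes that work with these complexes but lie outside the symbol rule were counted from lists by role. Beside the 19.6% of all tested genes called lower and 18.5% called higher, the share lower in the complex III, cytochrome oxidase, ATP synthase and complex II lists was 33.3%, 26.3%, 16.7% and 12.5%. In lists of 6 to 19 genes these shares lower lie near the background, while the shares higher were 0%, 0%, 0% and 12.5%. Log2 differences were negative for 3 of 6, 17 of 19, 4 of 6 and 6 of 8 genes, beside 6587 of 13263 tested genes. Of 6 tested assembly factors of complex III, 2 fell and 0 rose: UQCC2, which stabilizes cytochrome b, at 82.5% of control (limma adjusted p = 0.00527) and TTC19 at 87.7% (adjusted p = 0.0143). Of 19 further subunit or assembly genes of cytochrome oxidase, 5 fell and 0 rose. CMC1, which binds COX1 in early assembly, fell to 77.4% of control (adjusted p = 0.000585), PET100 to 84.5% (adjusted p = 0.00509) and HIGD2A to 85.4% (adjusted p = 0.00169). Of 6 further genes of ATP synthase 1 fell, ATPIF1, the inhibitor of ATP hydrolysis by the enzyme, to 87.4% of control (adjusted p = 0.0035). CYCS, cytochrome c, which carries electrons between the complexes, fell to 93.0% of control (adjusted p = 0.0389). Of 8 tested genes of complex II, 1 fell (SDHAF4, an assembly factor, 68.9% of control, adjusted p = 0.00292) and 1 rose (SDHD, a membrane anchor, 113%, adjusted p = 0.0204).

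Known regulators of these genes and of mitochondrial DNA were counted too. Of 12 listed, 10 were tested, 4 rose (40%, beside 18.5% of all tested genes) and 1 fell (10.0%, beside 19.6%), with a median log2 difference of 0.11. PPRC1, a coactivator of the PGC-1 family, rose to 124% of control (limma adjusted p = 0.000577), TFAM, which packs and transcribes mitochondrial DNA, to 123% (adjusted p = 0.000362) and TFB2M, a mitochondrial transcription factor, to 117% (adjusted p = 0.00494). NRF1, GABPA and YY1, whose motifs were searched above, were at 94.9%, 102% and 101% of control and were not called (adjusted p = 0.375, 0.604 and 0.656). PPARGC1A, the coactivator known for mitochondrial biogenesis in muscle and fat, was near 0, with a mean of 0.0107 FPKM in shNC and 0.00791 FPKM in shTDP43, and was not tested.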

How the data were processed

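RNA-seq libraries of 3 shNC and 3 shTDP43 samples of SH-SY5Y cells were analysed; poly(A) RNA and directional kits were used per the labels' protocols. The authors deposited an FPKM value for each gene in each library. Per the submitters' processing notes, the tools were TopHat2 2.1.0, SAMtools and Cuffdiff 2.2.1, on hg38. Annotation, strand use, library scaling and the handling of multiply mapped reads: not given in the sources used here. With no counts, no count test was run and depth is unknown.

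From these values, log2(FPKM + 1) was fitted with limma 3.58.1 (R 4.3.3) in all 6 libraries with group as the only term, for the 13263 genes that averaged 1 FPKM or more. Variance moderation used a trend on level. Two-sided p-values, with Benjamini-Hochberg adjustment over all tested genes, were called at 0.05. Log2 differences understate changes of low genes, so percentages of control are ratios of mean FPKM. Single shares were compared with exact permutation tests. Lists are described by counts and medians.

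Every member above 0 in any library was named. Values per library were given for the 4 largest called differences of each group, paralogs, tissue isoform pairs and the highest and lowest tested member. Of each further list, the 3 largest called differences were named, and PPARGC1A, NRF1, GABPA, YY1 and CYCS whatever their result. The members and lists were chosen with earlier results of these data known.

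All 59 members matched RefSeq, 40 by current and 19 by older symbols. Positions and promoters are RefSeq's on GRCh38, which hg38 names. Transcript length, GC content and gene overlap came from GENCODE 29. Length and GC content are those of a single transcript per gene, of middle length among those matched to RefSeq where there were any. Alternatives were other pseudocounts, filters and scalings, a length and GC correction (loess span 0.3), no variance trend, a replicate block and leaving out libraries.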

Additional observations from a re-analysis of the deposited data

How the results depend on the processing

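Of the 27 called members, 17 passed under all 16 alternatives and 0 reversed, while 9 members that were not called passed under some alternative. The medians of all members, the 3 complexes and the assembly genes kept their direction under every alternative, and no alternative was run for the medians of other lists. For all 52 tested members, the median log2 difference was -0.09 after quantile normalization and -0.088 after the length and GC correction, and -0.13 to -0.10 with 1 library left out. The number higher was 2 after quantile normalization and 2 without shNC replicate 1 and shTDP43 replicate 3, the libraries low in SNORD3A (an alternative added after seeing the data), and 1 to 2 with 1 library left out. Without those libraries, 1563 of all tested genes were higher and 5 ATP synthase genes lower. The median of cytochrome oxidase subunits was -0.13 after quantile normalization, -0.14 after the length and GC correction and -0.20 to -0.16 with 1 library left out. Of the assembly genes, the median was -0.029 at a mean of at least 5 FPKM. Among them 1 was higher after quantile normalization and 1 without the libraries low in SNORD3A (0 to 1 with 1 library left out), and 3 were lower after the length and GC correction (3 to 4 with 1 library left out). The median of ATP synthase was -0.11 with no filter on low values and -0.13 to -0.075 with 1 library left out. With 1 library left out, 2 to 5 complex III genes were lower. Members lower numbered 21 of 52 with no variance trend and 23 of 57 with no filter on low values, beside 26 of 52. Among these, cytochrome oxidase subunits numbered 8 and 10, and complex III genes 2 and 2. After quantile normalization COX8A, COX18 and ATP5G1 also did not pass (limma adjusted p = 0.073, 0.0682 and 0.0616). The cause of these shifts was not tested.

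With the replicate number as a block, 24 members were lower, 9 of them cytochrome oxidase subunits and 3 assembly genes. Same-numbered libraries correlated at r = -0.07, 0.06 and 0.11 in their deviations from the group means, and the other pairs at -0.20 to 0.13. The same number was the best match for some libraries and not for others. Correlations this small cannot decide whether the libraries were paired. COX8A, COX6A1, COX18 and COX20 did not pass with the block, and COX5B and UQCRH passed as lower.

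Limits: 3 libraries a group set the precision, and the depth behind low values such as COX6B2 is unknown.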

Other observations

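Several members share their place in the genome with another gene, by the GENCODE 29 annotation, and the pairs did not all move together. Besides SURF2 and STXBP4, WDR77, a methylation cofactor gene that overlaps ATP5F1 on the other strand, rose (mean 11.3 FPKM in shNC and 13.5 FPKM in shTDP43, log2 difference 0.23, limma adjusted p = 0.00211), while ATP5F1 was not called. ZMAT5, which starts 358 bases from UQCR10 on the opposite strand, fell (9.61 and 7.75 FPKM, log2 difference -0.28, adjusted p = 0.0126), while UQCR10 was not called. COX10-AS1, which starts 1 base from COX10, rose (11.6 and 13.2 FPKM, log2 difference 0.17, adjusted p = 0.0161), while COX10 was not called. VPS13B, which overlaps COX6C on the other strand, rose (22.6 and 24.7 FPKM, log2 difference 0.12, limma adjusted p = 0.0425), while COX6C fell. CPSF4, which overlaps ATP5J2 on the other strand, fell (27.9 and 25.2 FPKM, log2 difference -0.14, limma adjusted p = 0.0294), while ATP5J2 was not called. COX20, called lower, overlaps HNRNPU on the other strand. These genes were chosen after their values were seen, and reads of overlapping genes cannot be told apart where strand was not used.

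Among the further lists, GABPB1, the partner subunit of GABPA, rose to 115% of control (limma adjusted p = 0.0178), and TFB1M, which methylates mitochondrial ribosomal RNA, fell to 88.8% (adjusted p = 0.00521).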
